A study of Drosophila melanogaster with 2 samples.

Results

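The odorant receptor (Or), gustatory receptor (Gr) and ionotropic receptor (Ir) genes of Drosophila melanogaster were taken as the protein-coding genes whose symbol is Or, Gr or Ir followed by a number. The Ensembl annotation held 179 such genes among 13968 protein-coding genes, of which 59 were Or, 60 were Gr and 60 were Ir genes. The co-receptor Orco carries no number and is given separately, and 7 genes with such symbols that are not protein-coding were left out. Binding was measured by chromatin immunoprecipitation and sequencing (ChIP-seq) in whole embryos of the strain esg-GFP, collected from 0 to 24 h, which express escargot fused to enhanced green fluorescent protein (esg-eGFP) from a transgene. Sonicated chromatin of 200 to 800 bp was precipitated with an antibody against the tag, in 2 biological replicates that form the only group. The main peak list, made by the authors from both replicates, held 4397 peaks on the 7 chromosome arms and had a median signal value of 108.4. The unit of that value is not stated, read depth is unknown, and whole embryos do not show in which cells a site was bound. Each peak went to whichever protein-coding gene started nearest to the summit, the peak's point of highest signal.

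Escargot belongs to the Snail family of DNA-binding zinc finger proteins. Or proteins are membrane proteins that form odour-gated ion channels together with Orco, and Gr proteins are related channels for sugars, bitter compounds and carbon dioxide. Ir proteins descend from ionotropic glutamate receptors and work with co-receptors such as Ir8a, Ir25a and Ir76b in smell, taste, and the sensing of temperature and humidity. Each receptor gene is typically expressed in few sensory neurons, and the larval chemosensory organs form in the embryo.

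Of the 179 receptor genes, 8 had the nearest start site to at least 1 of the peaks, and together they took 11 peaks. These genes were the olfactory Or33a, Or33c and Or98b, the gustatory Gr89a, Gr93a and Gr93d, and the ionotropic Ir67b and Ir94d. The sequences around 5 summits are given for the strongest peak of each family (Gr89a, Ir94d and Or98b), for the Gr93a peak that, like those of Gr89a and Ir94d, was on the thresholded list of both replicates, and for the stronger Gr93d peak, which shares a motif with Gr89a. Each spans 131 bp centred on the summit, on the plus strand of dm6, read from the RefSeq assembly, and none overlapped an annotated exon. Capitals mark GGCGCC and CACTGT, which reads ACAGTG on the other strand. In the Gr89a sequence these overlap by their shared C.
Gr89a, chr3R:16497495-16497625: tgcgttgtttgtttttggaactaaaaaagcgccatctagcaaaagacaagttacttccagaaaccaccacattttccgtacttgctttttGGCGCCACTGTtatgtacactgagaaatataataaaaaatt
Gr93d, chr3R:21850317-21850447: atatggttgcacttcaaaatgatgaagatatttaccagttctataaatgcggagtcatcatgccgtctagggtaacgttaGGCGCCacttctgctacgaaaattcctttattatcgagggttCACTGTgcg
Gr93a, chr3R:21828232-21828362: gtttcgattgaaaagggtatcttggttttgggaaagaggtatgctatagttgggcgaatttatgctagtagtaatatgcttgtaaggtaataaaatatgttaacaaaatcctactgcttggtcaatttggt
Ir94d, chr3R:23396678-23396808: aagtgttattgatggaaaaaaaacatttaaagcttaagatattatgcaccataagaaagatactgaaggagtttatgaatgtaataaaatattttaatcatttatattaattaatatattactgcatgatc
Or98b, chr3R:28377725-28377855: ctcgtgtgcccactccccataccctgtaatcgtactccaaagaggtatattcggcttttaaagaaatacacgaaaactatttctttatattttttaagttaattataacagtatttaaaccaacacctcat

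Within 100 bp of the summit, on both strands, the 11 receptor peaks held no CAGGTG, the hexamer known for Snail-family proteins, against 5.28% of all 4397 peaks. ACAGTG was found at 2 of 11 receptor peaks, against 20.2% of all peaks. The palindrome GGCGCC was searched for after the sequences had been read, and it was found at the same 2 peaks, against 114 peaks (2.59%) of the whole list. It lay 25 bp from the Gr89a summit and 15 bp from the Gr93d summit. The 201 bp windows at the receptor peaks had a median GC content of 33.8%, with a range of 21.4 to 42.3%, close to the median of 33.3% over all peaks. The Or33a peak had the lowest and the Gr93d peak the highest GC content among them. With 11 peaks, no motif share can be told from that of the whole list.

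Few receptor genes of any family were nearest to a peak. The share was 4.47% of the 179 receptor genes (95% exact Clopper-Pearson interval 1.95 to 8.62), against 20.3% of all protein-coding genes. By family it was 3 of 59 Or genes (5.08%, 1.06 to 14.1), 3 of 60 Gr genes (5%, 1.04 to 13.9) and 2 of 60 Ir genes (3.33%, 0.406 to 11.5). The intervals of the families overlapped almost entirely, so no order among them can be read. These intervals cover counting error only and treat genes as independent, which neighbouring genes are not. No test of the difference from other genes was run.

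No receptor gene had a summit at its promoter. Within 500 bp of a start site there was a summit at 0 of 179 receptor genes, with an exact upper limit of 2.04%, against 16.1% of all protein-coding genes. Within 1000 bp there was one at 2 of 179 (1.12%, 0.136 to 3.98), against 19.1% of all protein-coding genes. Those 2 were Or88a and Gr32a, and both summits were closer to another gene's start. Inside the gene body there was a summit at 0 of 179 receptor genes, against 11.1% of all protein-coding genes. The families did not differ in the promoter and gene body counts, which were 0 in each.

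**Figure D1:**
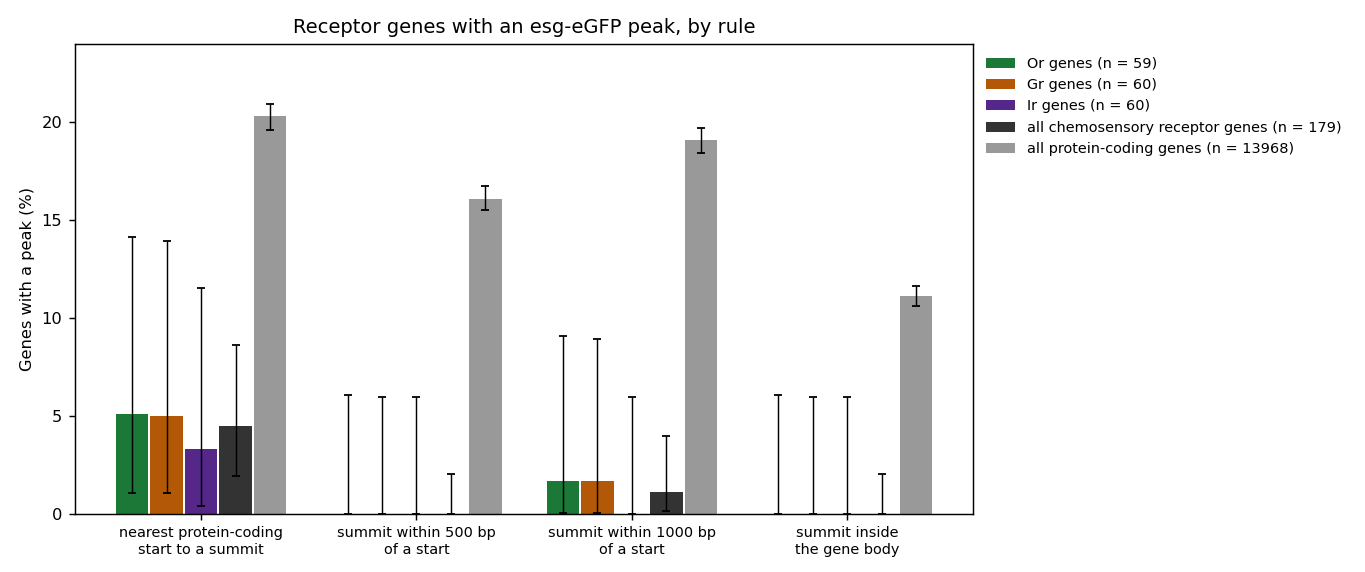
Share of genes with a peak of the main list (%) under 4 rules, for Or, Gr and Ir genes, all chemosensory receptor genes and all protein-coding genes, with exact 95% intervals as error bars. The receptor genes stand at 4.47% for the nearest start and at 0 within 500 bp and in the gene body, against 20.3%, 16.1% and 11.1% of all protein-coding genes.

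All 11 receptor peaks lay in intergenic sequence, against 38.3% of all peaks. None was within 500 bp of a protein-coding start, against 1744 of 4397 peaks (39.7%) in the whole list. Their signal values had a median of 86.0 and a range of 56.5 to 171.4, and 3 of them exceeded the median of the whole list. All were 336 bp wide. Each of the 11 overlapped a peak in the ranked list of both replicates, which holds peaks before the reproducibility threshold. On the thresholded lists 3 of 11 overlapped a peak of both replicates and 7 of 11 a peak of at least 1 replicate, against 57.5% and 81.8% of all peaks. Most receptor peaks were thus below the threshold in at least 1 replicate. The ranked lists held 61170 and 32565 peaks on the arms, and the main list was itself made from both replicates. Overlap with the ranked lists therefore says little about reproducibility, and its share over all peaks was not counted.

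Among the gustatory genes, the strongest peak belonged to Gr89a (FBgn0038440), which encodes a receptor found broadly in bitter-sensing neurons. This peak (3R 16497392 to 16497727) had a signal value of 171.4 and rank 1201 of 4419. Its replicate values were 95.7 in replicate 1 and 73.8 in replicate 2, at rank 1106 and rank 1453 of the ranked lists. The authors' −log10 irreproducible discovery rate (IDR), for which higher means more reproducible, was 5 in the list of replicate 1 and 4.12 in that of replicate 2. The peak was on the thresholded list of both replicates. The summit was 1399 bp downstream of the Gr89a start and 257 bp past the end of the gene. The start of the next gene, the cadherin gene Cad89D, was 2138 bp away.

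Gr93a (FBgn0041229), which encodes a receptor required for the taste of caffeine, was nearest to 2 peaks upstream of its start. The stronger (3R 21828129 to 21828464) had a signal value of 122.7 and lay 4206 bp away, with 66.5 in replicate 1 and 55.1 in replicate 2. It passed the threshold of both replicates. The weaker (3R 21827496 to 21827831) had a value of 61.8 at 4839 bp, with 37.3 in replicate 1 and 25.1 in replicate 2, and passed in neither. The weaker one is the least certain assignment of the 11, because the start of CASK, a gene for a membrane scaffold protein, was 4990 bp away, a margin of 151 bp. A non-coding gene, lncRNA:CR45632, started closer still, at 3972 bp.

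Gr93d (FBgn0045468) closed the same row of genes on its far side and was also nearest to 2 peaks. The stronger (3R 21850214 to 21850549) had a signal value of 79.5 at 3723 bp upstream of the start, with 53.3 in replicate 1 and 30.4 in replicate 2, and passed the threshold of replicate 1. The weaker (3R 21848917 to 21849252) had a value of 61.6 at 2426 bp upstream, with 30.7 in replicate 1 and 36.2 in replicate 2, and passed in neither. The next gene outside the family, glec, which encodes gliolectin, spans 3R 21850694 to 21856266. Its 3′ end is close to the stronger Gr93d summit at 21850382, while its start is 5884 bp from it. Gr93b and Gr93c, the genes between Gr93a and Gr93d, had no assigned peak.

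Among the ionotropic genes, Ir94d (FBgn0259193) was nearest to the peak at 3R 23396575 to 23396910, with a signal value of 156.4 and rank 1364. It had 74.5 in replicate 1 and 76.3 in replicate 2 and was on the thresholded list of both. The summit was 6065 bp upstream of the Ir94d start. CG17380 overlaps the beginning of Ir94d on the other strand and started 6985 bp away, and the non-coding gene lncRNA:CR44323 started 3035 bp away. Its signal was close to that of Gr89a, while its assignment rests on leaving non-coding genes out.

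Ir67b (FBgn0036083) was nearest to 2 peaks beyond its 3′ end, on 3L. The peak at 10428126 to 10428461 had a signal value of 96.2 at 3689 bp from the start, with 34.4 in replicate 1 and 56.9 in replicate 2. The peak at 10428781 to 10429116 had 88.1 at 3034 bp, with 34.7 in replicate 1 and 51.0 in replicate 2. Both passed the threshold of replicate 2 alone, and both were higher in replicate 2. Their next start was that of Ir67c, and the closest start of a gene that is no receptor gene, CG12362, was 15476 bp from the first summit.

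Among the olfactory genes the signal values were 86.0, 63.9 and 56.5. The Gr peaks at 79.5, 61.8 and 61.6 lay within that range, so no order of Or and Gr genes can be read. The 3 Ir peaks, from 88.1 to 156.4, all lay above the 3 Or peaks. With so few peaks this difference was not tested. Or98b (FBgn0039582) was nearest to a peak at 3R 28377622 to 28377957 with a value of 86.0, and with 35.9 in replicate 1 and 52.4 in replicate 2, where alone it passed the threshold. Its summit lay 25548 bp downstream of the start, the longest distance of the 11, in a gene-poor stretch in which the next start, of Moca-cyp, was 37456 bp away. Or33a (FBgn0026392) was nearest to a peak 2759 bp upstream (2L 11931578 to 11931913) with a value of 63.9, and with 36.8 in replicate 1 and 27.5 in replicate 2. Or33c (FBgn0026390), a receptor of maxillary palp neurons, was nearest to a peak 2726 bp downstream (2L 11940527 to 11940862) with a value of 56.5, and with 32.2 in replicate 1 and 28.2 in replicate 2. Neither Or33 peak passed the threshold of a single replicate or appeared on the other list of the whole series. The start of Pde1c, a phosphodiesterase gene, was 415 bp further from the Or33a summit than that of Or33a, and Crys was 708 bp further from the Or33c summit than Or33c.

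**Figure D2:**
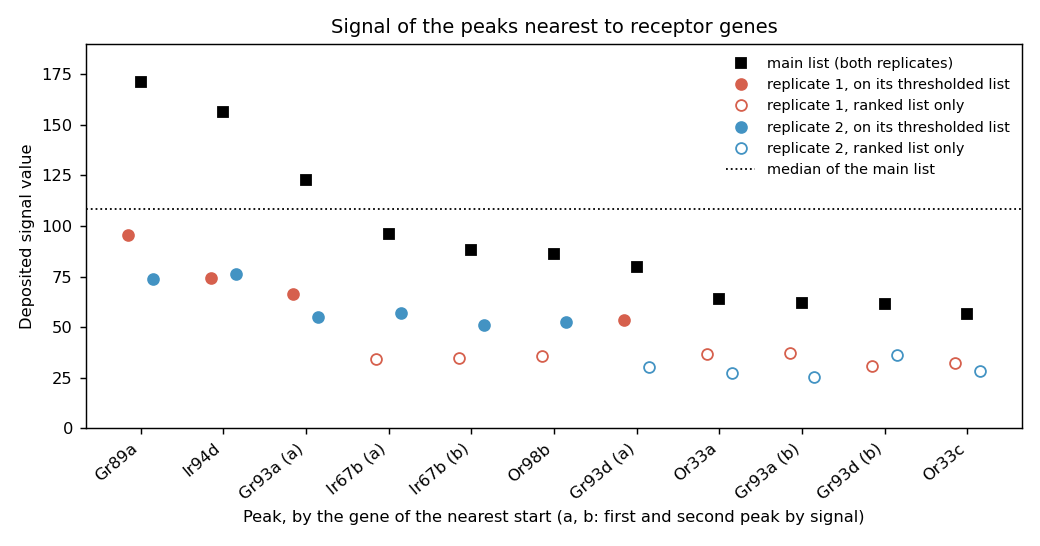
Deposited signal value (unit not stated) of the 11 peaks nearest to receptor genes in the main list (squares) and in each replicate (circles, filled where the peak was on that replicate's thresholded list), with the main list's median of 108.4 as a dotted line. The Gr89a, Ir94d and stronger Gr93a peaks lie above the line and are filled in both replicates.

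The peaks assigned to rows of receptor genes lay outside those rows. Neighbouring receptor genes with no other protein-coding start between them formed 27 clusters that held 78 of the 179 genes, and the other 101 stood alone. Peaks were assigned to 3 clusters: 4 to Gr93a to Gr93d, 2 to Or33a to Or33c and 2 to Ir67b and Ir67c. Those clusters span 14.2 kb, 4.70 kb and 4.42 kb. In each of the 27 clusters, 0 summits lay between the first and the last gene. Rows of other genes were not counted for comparison. Of clustered genes 5 of 78 had an assigned peak (6.41%, 2.11 to 14.3), and of single genes 3 of 101 (2.97%, 0.617 to 8.44), so the intervals overlapped. The largest cluster, the 6 sugar receptor genes Gr64a to Gr64f, had none. Gr93a to Gr93d and Or33a to Or33c had peaks on either side, assigned to the outer genes. The rule of the nearest start fixes this for summits outside a row, so it is no separate result.

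**Figure D3:**
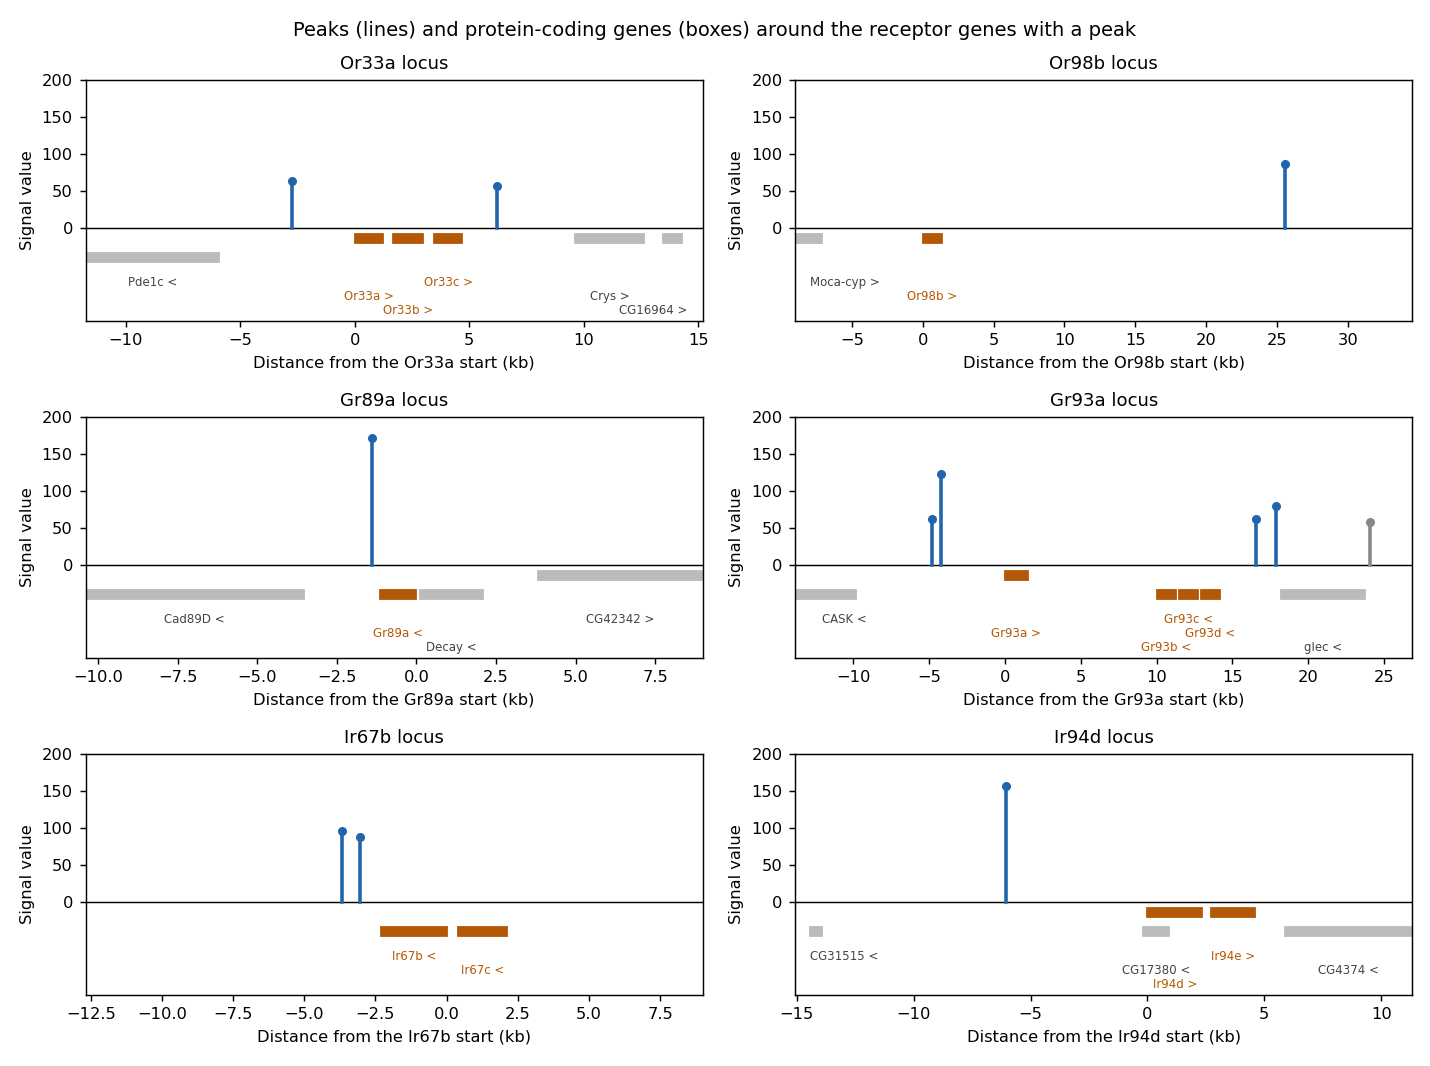
Signal value of peaks (lines, blue where the nearest start is that of a receptor gene and grey otherwise) against distance from the named gene's start (kb), above protein-coding genes (boxes, orange for receptor genes, with > for the plus and < for the minus strand). In the 6 loci every blue line stands outside the orange boxes, at signal values of 56.5 to 171.4.

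Receptor gene loci were about as long as those of other genes. Each gene's territory was taken as the stretch of DNA to which its start is the closest protein-coding one, and its median was 4.13 kb for receptor genes, against 4.26 kb for all protein-coding genes. With a territory under 5 kb, 3 of 95 receptor genes had a peak (3.16%), against 12.8% of all genes of that size. From 5 to 20 kb it was 4 of 66 (6.06%), against 24.8%, and from 20 kb it was 1 of 18 (5.56%), against 43.2%. The share was thus below that of all genes in each size class, with 1 gene in the last. Counting territory more than 500 bp from a start, receptor genes had 7.94 summits per Mb (exact Poisson 95% interval 3.96 to 14.2), against 21.7 per Mb over all genes (20.9 to 22.6). By family the values were 5.04 for Or genes (1.04 to 14.7), 18.7 for Gr genes (6.06 to 43.5) and 5.75 for Ir genes (1.19 to 16.8). The Gr value was near that of all genes, and 4 of its 5 peaks came from the single Gr93 locus.

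Receptor gene starts were far from summits. The median distance from a start to the closest summit was 16.5 kb over the 179 receptor genes (quartiles 7.30 and 36.5), against 8.11 kb over all protein-coding genes (quartiles 2.22 and 20.7). It was 23.3 kb for Or genes (13.3 and 41.9), 11.4 kb for Gr genes (5.91 and 27.8) and 14.9 kb for Ir genes (5.99 and 30.7). The quartile ranges of the families overlapped, with Or genes the farthest at the median. The shortest distances were 659 bp at Or88a, 762 bp at Gr32a and 2209 bp at Ir68b. The longest were 124 kb at Or35a, 64.1 kb at Gr92a and 264 kb at Ir40a. Within 5 kb of a summit there were 27 of the 179 receptor genes (15.1%, 10.2 to 21.2), against 38% of all protein-coding genes.

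**Figure D4:**
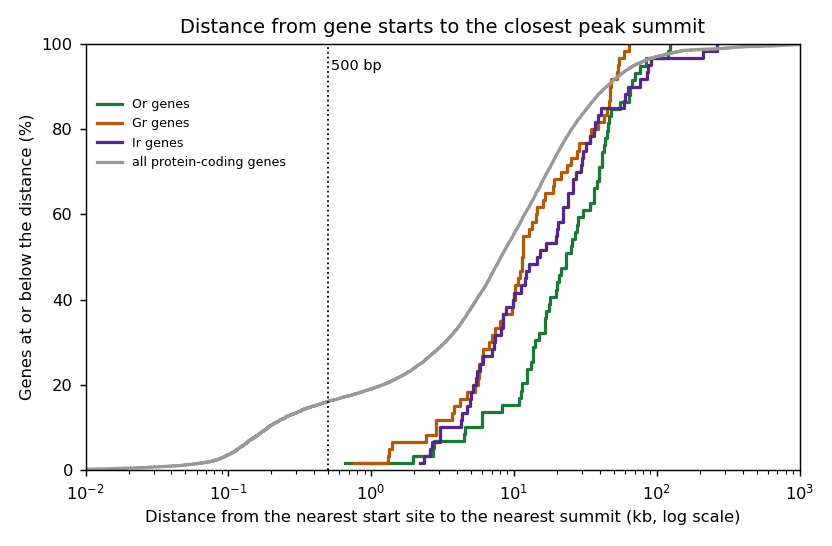
Cumulative share of genes (%) against the distance from a gene's nearest start to the nearest summit (kb, log scale, with distances under 0.01 kb drawn there), for Or, Gr and Ir genes and all protein-coding genes. No receptor gene lies left of the dotted line at 500 bp, where 16.1% of all protein-coding genes do, and the medians are 23.3, 11.4 and 14.9 kb against 8.11 kb.

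The co-receptors had no assigned peak. Orco, the partner of the Or proteins, started 38731 bp from the closest summit of the main list. Ir8a, a co-receptor for acids, started 7042 bp from one and Ir76b, a co-receptor of smell and taste, 29284 bp. Ir93a, which acts in temperature and humidity sensing, started 30174 bp from one. Ir25a, the broadly used co-receptor, was different in position, since its start lay 2569 bp from a summit with a signal value of 1071.4. That summit was 130 bp from the start of another gene, tank, and ranked at position 27 of the list, so it was assigned to tank.

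The gustatory receptors of sugar and carbon dioxide had none either. The sugar receptor gene Gr5a started 15884 bp from the closest summit, and Gr43a, the receptor for fructose, 2867 bp from a summit of 63.0 that was assigned to Glo1. In the Gr64 row the distances were 9804 bp for Gr64a, 11640 bp for Gr64b, 10199 bp for Gr64c, 8322 bp for Gr64d, 6696 bp for Gr64e and 4664 bp for Gr64f. Gr21a and Gr63a, which together form the carbon dioxide receptor, started 38573 bp and 21403 bp from a summit. None of these genes had a summit within 1000 bp.

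Of the receptor genes without an assigned peak, the 5 with the closest summits are described here. By the rule, another gene's start was nearer to each of these summits. The summit 659 bp from Or88a had a signal value of 268.4 and was 465 bp from the start of CG12402. The summit 762 bp from Gr32a, a bitter and pheromone receptor gene, had a value of 119.5 and was 191 bp from Idua, the gene of a lysosomal enzyme. Gr97a was 1308 bp from a summit of 83.3 that was 863 bp from CG5521. Gr39b was 1334 bp from a summit of 61.2 that was 187 bp from CG8665. Or85f was 1950 bp from a summit of 166.5 that was 87 bp from CG34117. Of these 5 summits, those nearest to CG12402, Idua, CG8665 and CG34117 were within 500 bp of that gene's start. Over all peaks 39.7% were within 500 bp of a start. The 5 were picked for their closeness and do not speak for the other receptor genes.

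Receptor genes that lie inside an intron of another gene did not have an assigned peak. There were 22 of them (9 Or, 6 Gr and 7 Ir genes), of which 0 had a peak. The share was 8 of 157 (5.10%) for the other receptor genes and 20.3% for all protein-coding genes. The exact interval of the first share reached 15.4%, so it cannot be told from that of the other receptor genes. Intron-nested genes outside the 3 families were not counted. The host genes of 4 of them held summits. Ir48c lies in an intron of ths, which encodes a fibroblast growth factor ligand, and ths held 3 summits of 282.9, 132.2 and 80.4, of which 2 were in that intron. The closest was 2347 bp from the Ir48c start. Gr9a lies in an intron of CG15312 that held summits of 106.0 and 6.4, the closer one 6083 bp from the Gr9a start. Or1a lies in an intron of CG3777 that held a summit of 103.0 at 23258 bp. Or45a lies in an intron of CG13954, which held a summit of 114.8 outside that intron, 43410 bp away. It also lies in an intron of CG13739, which held no summit. The strongest summit in each of the 4 hosts with summits was assigned to the host, and none to the receptor gene inside it. With the single outermost start per gene, the ths summit of 282.9 went to Ir48c instead. Or85a lies in an intron of the paired box gene Poxm, which was nearest to 2 peaks but held no summit. The hosts of Ir51b (row), Ir60a (nord) and Ir62a (Iml1) were each nearest to 1 peak and held no summit either. Those summits lay 118, 306 and 280 bp from the start of the host.

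Receptor genes with a shared promoter had no assigned peak. A protein-coding start on the other strand lay within 500 bp of the start of 16 receptor genes (9 Gr, 5 Ir and 2 Or genes). Of these 0 had an assigned peak, against 8 of the 163 others (4.91%) and 20.3% of all protein-coding genes. The exact interval of the first share reached 20.6% and held both values, so no difference can be read. Their median territory was 1.81 kb, against 4.82 kb for the other receptor genes. Shared promoters of other genes were not counted. Among their partners CG5521 alone had an assigned peak, whose summit was 863 bp from its own start and 1308 bp from that of Gr97a, with the 2 starts 445 bp apart. In 2 of these pairs both genes are receptor genes, namely Gr58a with Gr58b, 183 bp apart, and Gr59e with Gr59f, 131 bp apart. A shared start on the same strand was annotated for Gr64b with Gr64c, Gr64d with Gr64e, and Or10a with Gr10a, and none had a summit within 1000 bp. Peaks at these could not have been told apart by gene.

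By chromosome arm the 8 genes with a peak were 5 of 42 receptor genes on 3R, 2 of 31 on 2L, 1 of 35 on 3L, 0 of 46 on 2R and 0 of 25 on X. Over all protein-coding genes the shares were 19.7% on 3R, 20.3% on 2L, 21.9% on 3L, 17.9% on 2R and 22.9% on X. The interval for receptor genes on 3R, 3.98 to 25.6%, held the value of all genes there, and on 2R the interval reached 7.71%.

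The longer ranked lists held weak peaks at some receptor promoters. In replicate 1, 66 of 179 receptor genes had a ranked summit within 500 bp of a start (36.9%, 29.8 to 44.4), against 50.6% of all protein-coding genes. In replicate 2 it was 38 of 179 (21.2%, 15.5 to 28.0), against 41.5%. In both replicates at once it was 19 of 179 (10.6%, 6.51 to 16.1), namely 5 Or, 7 Gr and 7 Ir genes, against 31.7%. These counts, also those of all genes, take any ranked summit within 500 bp, even where another gene's start is nearer. A peak at a shared promoter could thus count for 2 genes, as at Gr58a and Gr58b. Among the receptor genes the strongest such peak had a signal value of 31.7 in replicate 1, at Ir31a, and 22.1 in replicate 2, at Or19b. The Ir31a start is 362 bp from those of CG17768 and LSm-4, and which start was nearest to that peak was not worked out. The medians were 17.5 and 13.3 for receptor genes, against 24.0 and 22.6 for all genes with such a peak. Gr21a had 17.1 in replicate 1 and 21.6 in replicate 2, and Gr64c had 26.1 and 11.6. Of the co-receptors, Orco, which is not among the 179 genes, had 31.5 in replicate 1 and 13.6 in replicate 2. Ir76b had 25.5 in replicate 1 alone and Ir25a 12.7 in replicate 2 alone, while Ir8a and Ir93a had no such peak. Ir84a, the receptor for phenylacetaldehyde, had 23.1 in replicate 1 and 21.5 in replicate 2, and was named with Ir31a and Or19b after the values were seen. None of these promoter peaks is on the main list. The shares on the ranked lists were also below those of all genes.

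Other chemosensory genes were counted by the same rule. Odorant-binding protein genes had a peak at 5 of 51 (9.80%, 3.26 to 21.4), with Obp56i at a signal value of 163.7, Obp28a at 156.1 and Obp99b at 107.9, the last within 500 bp of the start. Pickpocket channel genes, which encode sodium channels of taste and touch, had a peak at 4 of 29 (13.8%, 3.89 to 31.7), with ppk at 238.3. CheA and CheB genes had one at 6 of 20 (30.0%, 11.9 to 54.3), with 4 peaks at CheA75a. Snmp1 and Snmp2 had none. The intervals of these lists all included the 20.3% of all protein-coding genes. Of 11 transcription factor genes of sensory organs and receptor neurons, 3 had a peak, namely Xbp1 (226.3), zf30C (105.3) and Eip93F (113.7). No peak was nearest to ato, amos, lz, acj6, pdm3, onecut, sim or Fer1.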

How the data were processed

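Deposited peak lists of 2 biological replicates and of the whole series were analysed. By the texts that accompany the deposited files, the authors made the peaks in dm6 coordinates from replicate and control alignments and selected them by irreproducible discovery rate (IDR). The sources used here do not name the aligner or peak caller. The signal value per peak and the −log10 of the IDR are the authors' values, and were used only to describe and rank peaks. The ranked lists hold 8 further columns of per-replicate values without headers, which were not used. Read depth is unknown.

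A gene's starts were all transcript starts of Ensembl release 115 (BDGP6.54), whose arms have dm6 lengths. The 87 summits with tied starts went to 1 gene, none of them a receptor gene. Replicate overlap needed 1 bp. Sequence came from the RefSeq assembly of the same release. Positions are 1-based, and GGCGCC and ties were added after seeing the data. Intervals are exact at 95%, and no test between groups was possible with 1 group. The members and lists were chosen with earlier results of these data known. Named genes were those with a peak, their hosts and start partners, listed co-receptors and sugar and carbon dioxide receptors, and the 5 others closest to a summit. The assignment of summits to starts was tested on simulated summits planted close to isolated starts. That did not test distant summits, such as those of the receptor peaks, or the counts. The software was scipy 1.17.1, pandas 2.3.3, numpy 2.4.6 and matplotlib 3.10.9 on Python 3.11.15. Other peak lists, single replicates, a higher signal limit, other assignments and the addition of Orco served as alternatives.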

Additional observations from a re-analysis of the deposited data

How the results depend on the processing

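Of 57 counts under alternative settings, 34 stayed within 1.5 times the main count or at 0. The 34 include the counts with Orco added, which had no peak, and with ties counted, where no receptor peak was tied. Those repeat the main counts and say nothing about stability. The main counts were 8 receptor genes with a peak (3 Or, 3 Gr and 2 Ir) and 11 peaks. With each replicate's own list the counts were 4 to 5 genes, 0 to 1 Or genes, 1 to 2 Ir genes and 5 to 6 peaks: without replicate 1 the genes were 5 and without replicate 2 they were 4, while 16.8% and 15.6% of all protein-coding genes had a peak. On the other list of the whole series Or genes were 1, against 17.6% of all genes with a peak. Among peaks with a signal above the main list's median there were 3 genes (Gr89a, Gr93a and Ir94d), 0 Or genes, 1 Ir gene and 3 peaks, against 12.2% of all genes. Counting genes of every biotype left 1 Ir gene, because the Ir94d summit went to a non-coding gene, against 18.5% of all genes. With the single outermost start Ir genes were 4, with Ir48c and Ir85a added, against 20.8% of all genes. A summit within 1000 bp gave 2 genes, with 1 Or, 1 Gr and 0 Ir genes, and the gene body gave 0 in all families. Peaks found in both replicates were 11 on the ranked lists and 3 on the thresholded ones. No peak assigned to a receptor gene lay within 500 bp of its start on the thresholded lists, under the assignments run there; the ranked lists, which hold such peaks, were not part of that count. Adding Orco or counting tied starts changed no count of genes with a peak.

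No paired analysis was possible because the series holds 1 group and no contrast. The unknown read depth and the small counts limit every share given here.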
